A study of Mus musculus with 4 samples.

Results

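Cxx1a, Cxx1b and Cxx1c are 3 genes among the 24411 genes listed for mouse late two-cell embryos cultured with the MYC inhibitor 10074-G5 or with its vehicle, dimethyl sulfoxide (DMSO). They were taken by their symbols in the deposited expression files and were chosen because Cxx1a had already stood out between treated and control embryos, so the difference between these groups is described for them without a test. Their current names are Rtl8a, Rtl8b and Rtl8c (retrotransposon Gag-like 8). The embryos were of the ICR strain and were made by in vitro fertilization. One group was cultured with DMSO and the other with 6 µM 10074-G5, and both were collected at 36 h post-insemination (hpi). The culture with the inhibitor or DMSO began at 3 hpi according to the sample labels and at 6 hpi according to the series description. Each group had 2 RNA-seq libraries, and each library held the polyadenylated RNA of a pool of 10 embryos, so that no value belongs to a single embryo and fewer cells that express a gene cannot be told apart from less RNA per cell.

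The Cxx1 genes descend from the gag gene of a sushi-ichi retrotransposon, a long-terminal-repeat element whose remnants were kept in mammals as single-copy genes and small families. Relatives such as Peg10 and Rtl1 are imprinted and are needed for the placenta, whereas the Cxx1 genes code for short proteins that keep only a Gag-like part. The human RTL8 proteins are known partners of ubiquilin-2, a shuttle factor that carries ubiquitinated proteins to the proteasome. 10074-G5 is a small molecule that hinders the pairing of MYC with MAX, the partner with which MYC binds DNA at E-boxes, and the late two-cell stage is the time of major zygotic genome activation (ZGA), when maternal transcripts are replaced by embryonic ones.

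The 3 genes lie within 62516 bp of chromosome X (GRCm38, RefSeq gene spans). Cxx1c is at chrX:53607922-53609135 on the plus strand, Cxx1a at chrX:53642488-53643763 on the minus strand and Cxx1b at chrX:53669165-53670437 on the minus strand. The gap between Cxx1c and Cxx1a is 33352 bp, and that between Cxx1a and Cxx1b is 25401 bp. In the GENCODE M21 annotation each gene has a single exon, so the whole of each coding sequence is exonic and no intron separates it from its untranslated regions. The coding sequence of Cxx1a spans chrX:53643280-53643621, that of Cxx1b chrX:53669957-53670298, and that of Cxx1c chrX:53608046-53608384. The first 300 bases of the coding sequences are given because their likeness decides which of the values can be assigned to 1 gene. The coding sequences of Cxx1a and Cxx1b were identical at 342 of 342 bases, and in the Cxx1c sequence the capitals mark bases that differ from Cxx1a or have no partner in it when the sequences are aligned.
Cxx1a and Cxx1b: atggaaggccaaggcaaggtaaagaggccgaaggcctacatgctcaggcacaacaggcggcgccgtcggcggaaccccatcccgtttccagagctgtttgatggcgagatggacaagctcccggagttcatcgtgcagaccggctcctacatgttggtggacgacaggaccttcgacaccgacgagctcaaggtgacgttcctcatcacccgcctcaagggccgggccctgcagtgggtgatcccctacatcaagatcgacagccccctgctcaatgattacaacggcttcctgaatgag
Cxx1c: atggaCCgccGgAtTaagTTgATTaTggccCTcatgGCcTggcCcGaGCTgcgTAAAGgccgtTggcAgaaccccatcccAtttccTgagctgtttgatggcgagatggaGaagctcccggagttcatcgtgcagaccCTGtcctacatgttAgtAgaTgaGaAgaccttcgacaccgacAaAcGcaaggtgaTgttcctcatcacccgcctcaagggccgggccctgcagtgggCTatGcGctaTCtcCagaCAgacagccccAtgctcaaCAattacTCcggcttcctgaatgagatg

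Over the whole GENCODE transcripts, Cxx1a and Cxx1b matched at 1178 of 1183 aligned bases (99.6%), and their longest exact match ran over 770 bases. Of the 150-base stretches of the Cxx1a transcript, the length of 1 sequenced read, 62.4% also occurred in Cxx1b. Cxx1c was less alike: its coding sequence matched that of Cxx1a at 279 of 336 aligned bases (83.0%), and none of the 150-base stretches of Cxx1a occurred in its GENCODE transcript of 401 bases, which is shorter than its RefSeq span and may leave shared stretches out. The expected counts reflected this sharing. Cxx1a and Cxx1b had fractional values in every library (29.30 and 10.70 in DMSO replicate 1, for example), although the counts of the 3 genes summed to a whole number in each of the 4 libraries. In treated replicate 2, the sum is whole only with the 3.27 counts of Cxx1c, so fragments were divided among all 3 genes there. The division between the copies is therefore an estimate of the counting program, whereas the sum of the 3 genes does not depend on it. The study states that only uniquely mapped reads were kept, and how fractional counts remained after that step is not stated. Fragments that fit several copies may thus be missing from the sum and from the FPKM values, which was not tested.

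Cxx1a was the main member in every library, and its level was higher in both treated libraries than in both controls. Its FPKM (fragments scaled to transcript length and library size) was 1.54 and 7.24 in DMSO replicates 1 and 2, and 30.01 and 22.12 in 10074-G5-treated replicates 1 and 2. These values rest on expected counts of 29.30, 131.07, 622.34 and 436.41, so the lowest library is also the least precise. The groups did not overlap, but DMSO replicate 1 stood well below DMSO replicate 2. By CPM (counts scaled to the library size with TMM factors), the DMSO libraries averaged 4.34 ± 3.68 (SD, n = 2) and the treated libraries 24.8 ± 5.69 (SD, n = 2). The ratio of a treated to a control library ranged from 3.00, for treated replicate 2 over DMSO replicate 2, to 16.6, for treated replicate 1 over DMSO replicate 1. The ratio of the control libraries to each other was 3.99, and that of the treated libraries was 1.39. The smallest ratio between the groups was thus below the ratio within the control group.

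The edgeR fit over 13549 tested genes gave a log2 fold change (log2FC, treated over control) of 2.51 (standard error 0.72) for Cxx1a. This value was larger than that of 97.9% of the tested genes. As the gene was chosen on this contrast, this place is a description. Without DMSO replicate 1 it was 1.85, and without DMSO replicate 2 it was 3.83. In order of FPKM among the tested genes, Cxx1a ranked 8658th and 5878th in the DMSO libraries and 2881st and 3478th in the treated libraries. A position near the middle of the tested genes in DMSO replicate 2 and below it in DMSO replicate 1 thus stood against a position in the upper part of the list in both treated libraries. Groups that do not overlap with treated embryos higher were found for 28.9% of all tested genes, and for 23.5% DMSO replicate 1 was also the lowest library. As the members were chosen on this contrast, nothing is read from Cxx1a being among them.

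Cxx1b, the near-identical copy, did not separate the groups. Its FPKM was 0.59 and 1.61 in the DMSO libraries and 0.59 and 3.04 in the treated libraries, from expected counts of 10.70, 27.93, 11.66 and 57.32. The lowest values were those of DMSO replicate 1 and treated replicate 1, the library in which Cxx1a was highest. The DMSO libraries averaged 1.07 ± 0.583 CPM (SD, n = 2) and the treated libraries 1.64 ± 1.53 CPM (SD, n = 2). The log2FC of Cxx1b was 0.61 (standard error 1.35), and it turned to -0.94 without treated replicate 2. Treated replicate 2 had 4.89 times the CPM of treated replicate 1, more than any ratio between a treated and a control library for this gene, of which the highest was 4.13.

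Cxx1c was at the limit of detection. It had an expected count of 0 in both DMSO libraries and in treated replicate 1, and of 3.27 in treated replicate 2 (0.25 FPKM). With 3 counts taken as the most that a count of 0 allows, the limit in the libraries at 0 was between 0.139 and 0.180 CPM, and the 0.143 CPM of treated replicate 2 lies in that range. The gene did not pass the filter on low counts, which 2 of the 3 members passed, and no fold change is given for it. A difference between the groups was not detectable at this depth.

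**Figure D1:**
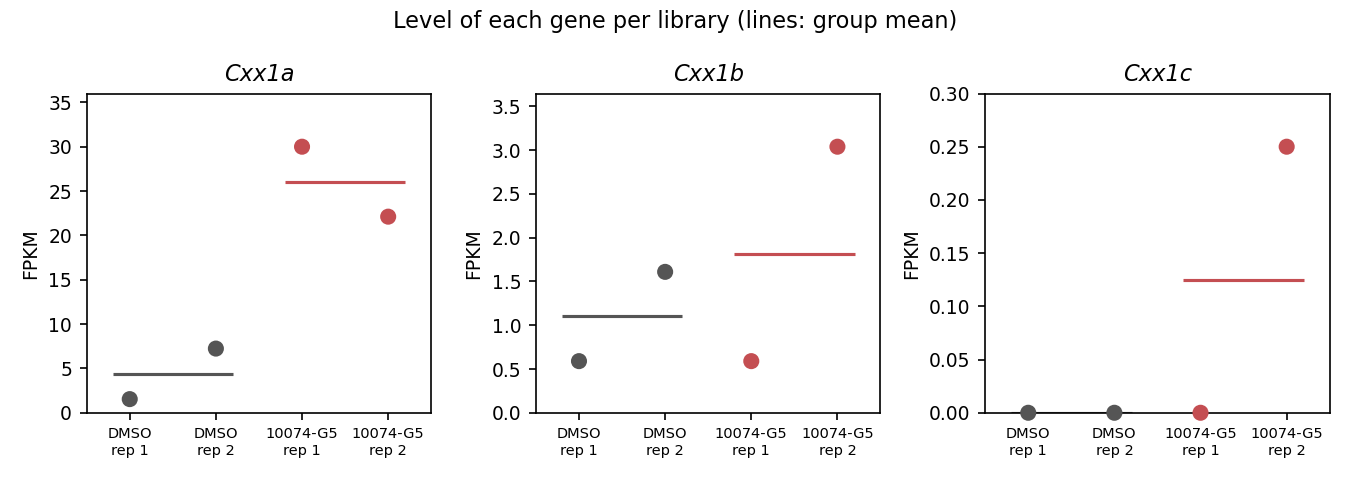
FPKM of Cxx1a, Cxx1b and Cxx1c (vertical axes, linear and with their own ranges) in the 2 DMSO libraries (grey) and the 2 libraries of 10074-G5-treated embryos (red), with 1 point per library and a line at each group mean. For Cxx1a both treated libraries (30.01 and 22.12) lie above both controls (1.54 and 7.24), for Cxx1b the groups overlap, and Cxx1c has a value above 0 in treated replicate 2 only.

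The summed count of the 3 genes, which does not depend on the split between copies, followed Cxx1a. It was 40 and 159 in the DMSO libraries and 634 and 497 in the treated libraries, or 2.40, 8.42, 29.4 and 23.7 CPM. All values of the treated libraries were above those of the controls. The ratio of a treated to a control library ranged from 2.82 to 12.3, that between the DMSO libraries was 3.51, and that between the treated libraries was 1.24. When the 3 genes were replaced by their sum in the fit, the log2FC was 2.29 (standard error 0.67), 1.67 without DMSO replicate 1 and 3.46 without DMSO replicate 2.

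The proportion of the copies was not the same in all libraries. Cxx1b took 27.5% of the summed count in DMSO replicate 1 (95% Wilson interval, 16.1% to 42.8%), 17.6% in DMSO replicate 2 (12.5% to 24.3%), 1.89% in treated replicate 1 (1.09% to 3.28%) and 11.5% in treated replicate 2 (8.96% to 14.6%). Both treated libraries were below both controls, but the intervals of DMSO replicate 2 and treated replicate 2 overlapped, and the treated libraries differed from each other by more than their intervals. The ratio of Cxx1a to Cxx1b by FPKM, which accounts for transcript length, was 2.61 and 4.50 in the DMSO libraries and 50.9 and 7.28 in the treated libraries. These intervals cover counting error only. They include neither the uncertainty of assigning fragments to near-identical copies nor copies made by PCR, which were not marked in these libraries.

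**Figure D2:**
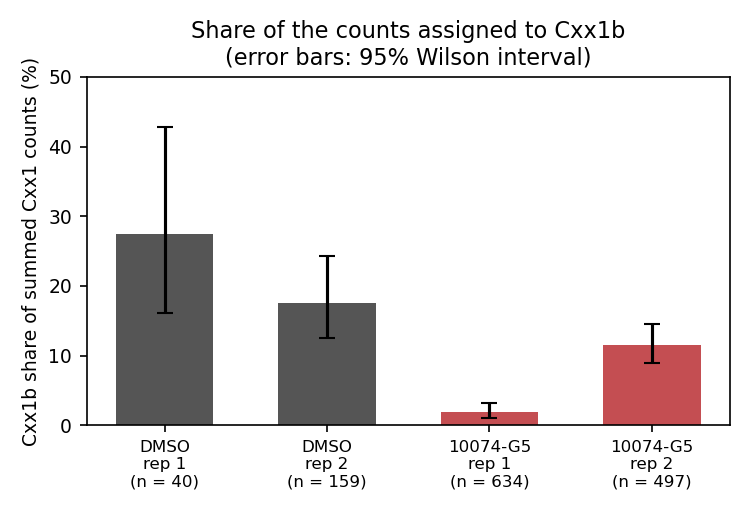
Share of the summed Cxx1 count assigned to Cxx1b in each library (bars, in percent, with the summed count n under each bar), with 95% Wilson intervals for counting error. The share is lowest in treated replicate 1 (1.89%) and highest in DMSO replicate 1 (27.5%).

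The regions upstream of the genes are given because Cxx1a and Cxx1b have the same coding sequence but were assigned different levels by the counting program. They are the 250 bases before each RefSeq start on the gene's own strand (RefSeq, GRCm38.p6), where all 3 members had an entry. The window of Cxx1a is chrX:53643764-53644013 (minus strand), that of Cxx1b chrX:53670438-53670687 (minus strand) and that of Cxx1c chrX:53607672-53607921 (plus strand). Capitals mark the longest stretch that Cxx1b and Cxx1c have in common, of 44 bases, which starts 202 bases before the start of Cxx1b and 242 bases before that of Cxx1c.
Cxx1a: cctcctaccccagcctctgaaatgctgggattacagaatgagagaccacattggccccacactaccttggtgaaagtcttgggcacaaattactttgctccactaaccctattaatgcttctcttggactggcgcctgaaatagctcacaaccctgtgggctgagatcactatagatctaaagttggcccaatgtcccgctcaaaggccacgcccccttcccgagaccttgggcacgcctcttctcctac
Cxx1b: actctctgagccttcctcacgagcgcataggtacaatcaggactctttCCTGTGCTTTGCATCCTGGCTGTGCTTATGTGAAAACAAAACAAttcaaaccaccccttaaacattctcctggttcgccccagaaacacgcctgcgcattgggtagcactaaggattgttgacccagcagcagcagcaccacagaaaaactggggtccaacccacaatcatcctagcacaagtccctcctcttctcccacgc
Cxx1c: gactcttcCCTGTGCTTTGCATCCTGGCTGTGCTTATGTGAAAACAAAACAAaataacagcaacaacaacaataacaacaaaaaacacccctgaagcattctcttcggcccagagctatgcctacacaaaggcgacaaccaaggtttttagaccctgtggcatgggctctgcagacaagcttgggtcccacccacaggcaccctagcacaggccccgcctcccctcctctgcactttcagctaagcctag

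With 50 bases after the start added, these windows of 300 bases were 69.5% identical between Cxx1a and Cxx1b over the aligned bases, against 75.8% between Cxx1b and Cxx1c and 66.5% between Cxx1a and Cxx1c. The longest stretch shared by Cxx1a and Cxx1b was 27 bases long and lay after the start, from base 19 to 45 in Cxx1a and from base 16 to 42 in Cxx1b.
Shared by Cxx1a and Cxx1b: ttgtaattgacaatctctgtgctctgc
The letters of 6 motifs were searched on both strands in the windows of the 3 members and of all 32851 RefSeq promoters. The canonical E-box CACGTG, the motif that MYC and MAX bind, was in none of the 3 windows and in 7.15% of all promoters. The general form CANNTG, which contains the canonical one, occurred once, at base 21 after the start of Cxx1c, and in 72.3% of all promoters. ACTTCCGG, the core bound by ETS factors, was found at the start of Cxx1a (from base 3) and of Cxx1b (from base 1) but not in Cxx1c, and in 3.89% of all promoters. CCAAT, the box bound by NF-Y, occurred 2 times in Cxx1a, 1 time in Cxx1b and not in Cxx1c (37.4% of all promoters). TATAAA, the TATA box (13.6%), and GGGCGG, the core of the GC box (35.7%), were in none of the 3 windows. A match or its absence describes these letters in these windows only.

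Other genes descended from retroelements were described in the same fit, as relatives of the Cxx1 genes. Of the 8 other sushi-ichi genes in the files, 3 passed the filter on low counts, all 3 had a log2FC above 0, and none was called (|log2FC| above 1 with an adjusted p under 0.05), as for every tested gene by edgeR. The share of all tested genes called was 0.0%. The share with an unadjusted p under 0.05 was 14.9%, and DESeq2 with transcript lengths called 0.478% of 18208 genes as higher and 2.41% as lower. Peg10, the imprinted gene needed for the placenta, had counts of 8 and 25 in DMSO libraries and 36 and 72 in treated libraries (log2FC 1.49, standard error 1.15, edgeR adjusted p = 0.529). The groups did not overlap for Peg10, but all of its FPKM values were at or below 0.57. Ldoc1l (Rtl6) had counts of 35 and 56 against 45 and 110 (log2FC 0.53, edgeR adjusted p = 0.777), and Zcchc16 (Rtl4) had 11 and 0 against 0 and 33 (log2FC 1.25, edgeR adjusted p = 0.835). For neither gene did the groups separate. Rtl1, the other imprinted member with a role in the placenta, was at 0 in all 4 libraries.

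In the PNMA family, another group of gag-derived genes, 4 of 9 genes were tested, with 2 above 0 and 2 below 0. Pnma5 had 9.83 and 20.2 FPKM in the DMSO libraries and 20.4 and 19.6 FPKM in the treated libraries (log2FC 0.31, edgeR adjusted p = 0.744). DMSO replicate 1 was also the lowest library for Pnma5, whereas the other 3 libraries were alike. Moap1, which codes for an adaptor that binds the pro-apoptotic protein BAX, had 15.7 and 15.3 FPKM against 12.5 and 16.4 FPKM (log2FC -0.25). Zcchc18 and Pnmal1 had counts between 0 and 25, with log2FC of 0.73 and -0.71, and their groups overlapped.

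Of 6 genes captured from other gag, protease or env sequences, 2 were tested. Fv1, a gag-derived gene that restricts infection by murine leukemia virus, had counts of 290 and 43 in the DMSO libraries and 45 and 27 in the treated libraries. Its log2FC was -2.53 (standard error 0.999, edgeR unadjusted p = 0.037, adjusted p = 0.333). When DMSO replicate 1, the high library, was left out, the log2FC was -0.42. Nynrin had counts between 0 and 16, with a log2FC of 0.21. Of the ubiquilins, 3 of 5 genes in the files were tested. Ubqln2, whose human protein binds RTL8, had 10.2 and 14.1 FPKM against 10.3 and 12.8 FPKM (log2FC -0.20), and the widely expressed Ubqln1 and Ubqln4 had log2FC of 0.11 and 0.44. Over the 12 tested genes of these 4 lists, 8 were above 0 and 4 below, with a median log2FC of 0.26, which was 0.14 without treated replicate 1 and 0.17 and 0.76 when DMSO replicates 1 and 2 were left out. Over all tested genes 51.5% were above 0, with a median of 0.04. By CPM, the groups did not overlap for Peg10 (higher in treated embryos) and Fv1 (lower) only. Over all tested genes, 28.9% and 28.3% had such groups in these directions. Fv1 had 17.4 and 2.28 CPM in the DMSO libraries and 2.09 and 1.29 CPM in the treated libraries, whereas its counts overlapped.

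**Figure D3:**
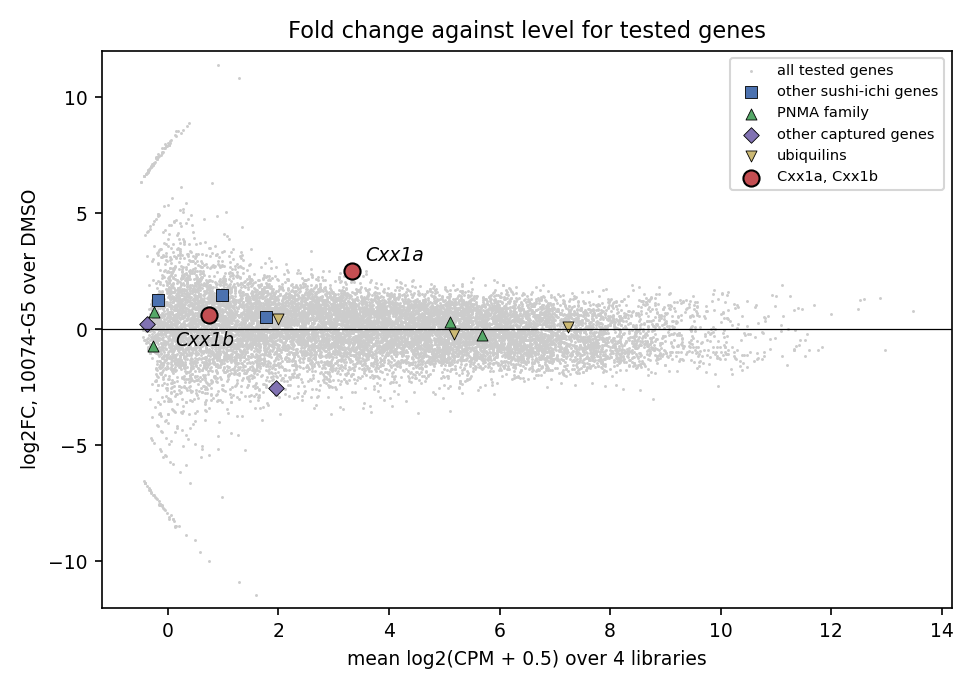
Log2FC (10074-G5 over DMSO, vertical axis) against the mean log2(CPM + 0.5) over the 4 libraries (horizontal axis) for the 13549 tested genes (grey), with Cxx1a and Cxx1b in red and the tested genes of 4 related lists in other colours. Cxx1a (log2FC 2.51) lies at the upper edge of the genes of its level, and Cxx1b (0.61), which has a lower level, lies within the range of the genes around it.

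The genes beside Cxx1a on chromosome X did not share a direction. Within 500 kb of the cluster there were 12 other genes, of which 7 were tested. Of these, 5 had a log2FC above 0 and 2 below, with a median of 0.48, and none was called by edgeR. This median was -0.04 without treated replicate 1 and 0.86 without treated replicate 2. The nearest tested gene, 4930502E18Rik (Ct55), lies 54.2 kb away at higher coordinates and had counts of 52 and 15 against 210 and 37 (log2FC 1.56, edgeR adjusted p = 0.481). Its high value was in treated replicate 1 only. 1700013H16Rik, 72.5 kb away, had counts of 676 and 1666 against 2509 and 2390 (log2FC 0.84, edgeR adjusted p = 0.395), with both treated libraries above both controls. Xlr, a lymphocyte-regulated gene 106.7 kb away, had counts of 170 and 178 against 412 and 172 (log2FC 0.48). At lower coordinates, Etd had counts of 54 and 33 against 3 and 51 (log2FC -0.95). Mospd1, which codes for a protein with a major sperm protein domain, had the highest count of the neighbours (between 32577 and 40979) and a log2FC of -0.43. Fam122b had counts of 478 and 490 against 737 and 720 (log2FC 0.33), without overlap. Of the 7 tested neighbours, 2 had groups without overlap with treated embryos higher (28.9% of all tested genes). For 1 neighbour, Mospd1, the groups did not overlap with treated embryos lower (28.3% of all tested genes). Over the 549 tested X-linked genes apart from the members, 314 were above 0 and 235 below, with a median log2FC of 0.18, which became 0.08 when DMSO replicate 1 was left out and 0.67 when DMSO replicate 2 was.

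**Figure D4:**
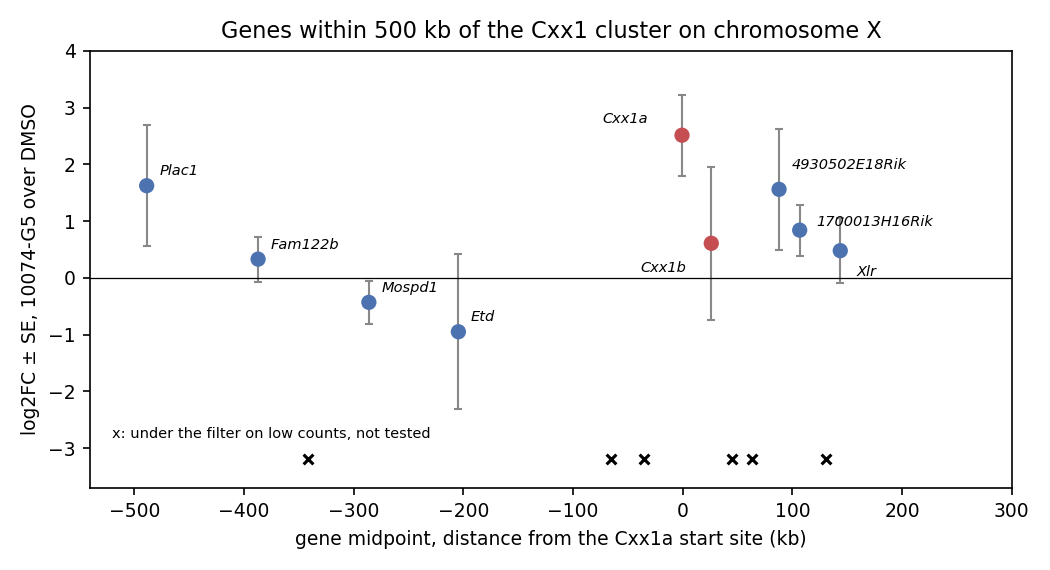
Log2FC ± standard error (vertical axis) of tested genes within 500 kb of the Cxx1 genes, against the distance of the gene's midpoint from the Cxx1a start (horizontal axis, in kb). Red points are Cxx1a and Cxx1b, blue points are 7 other tested genes, and crosses are genes under the filter on low counts, Cxx1c among them; the neighbours lie on both sides of 0, from -0.95 (Etd) to 1.62 (Plac1).

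The libraries themselves differed. DMSO replicate 1 differed by more than 2-fold from the other control library in 37.3% of tested genes and from the treated libraries in 50.3% and 54.2%, whereas DMSO replicate 2 differed from the treated libraries in 18.3% and 23.1%, and the treated libraries from each other in 15.9%. Total expected counts were between 18206584 and 20718690 and did not set DMSO replicate 1 apart. Myc had counts of 308 and 301 in control and 120 and 115 in treated embryos (log2FC -1.64, edgeR adjusted p = 0.333), and its partner Max had 529 and 1080 against 2430 and 1561 (log2FC 1.07, edgeR adjusted p = 0.334). Xist, the RNA that coats the inactive X chromosome, had counts of 132 and 6 against 32 and 19, and the summed level of 8 Y-linked genes was 171 and 124 CPM against 101 and 117 CPM, with Sry at 0. The 7 tested Y-linked genes did not all have the same direction. Of these, 3 had a log2FC above 0 and 4 below, from -3.02 (Ddx3y) to 0.49 (Zfy2). The groups did not overlap for 3 of them with treated embryos lower (28.3% of all tested genes). This was so for 0 of them with treated embryos higher (28.9% of all tested genes). The labels give no sex for the pooled embryos, and the part of a sex ratio in the X-linked values was not tested.

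Transcripts typical of oocytes and of two-cell embryos were measured beside the Cxx1 genes, and edgeR called none of them, as for every tested gene. DESeq2 with transcript lengths called 1 in each list as higher (0.478% of 18208 genes). These were Oosp1 (DESeq2 adjusted p = 0.028) and Zscan4f (DESeq2 adjusted p = 0.049). Of 20 oocyte transcripts, such as those of Gdf9 and Bmp15, all were tested, and 17 had a log2FC above 0 and 3 below, with a median of 0.67. Their summed level was 5207 and 10841 CPM in the DMSO libraries and 18764 and 14882 CPM in the treated libraries, and 14 of them had groups without overlap with treated embryos higher (28.9% of all tested genes), and 1 with treated embryos lower (28.3%). The latter was Zp3, which codes for a zona pellucida protein and had counts of 4072 and 1418 against 1274 and 1339 (log2FC -1.37, edgeR adjusted p = 0.333). All 11 two-cell transcripts in the files, such as the Zscan4 genes, had a log2FC above 0 (median 1.02). Over all tested genes, 51.5% were above 0. The summed levels of the two-cell transcripts were 1266 and 4106 CPM against 5582 and 5408 CPM. For 7 of them the groups did not overlap with treated embryos higher, and for 0 with treated embryos lower (28.9% and 28.3% of all tested genes). Without DMSO replicate 1 both medians were 0.33, and without DMSO replicate 2 they were 1.60 for the oocyte and 2.37 for the two-cell transcripts. The largest log2FC among these lists was 1.83 (Zscan4f). That of Cxx1a was 2.51, but as Cxx1a was chosen on this contrast, nothing is read from its being larger. With the mean of all 4 libraries subtracted, the summed Cxx1 count was at -2.01, -0.39, 1.35 and 1.05 on the log2 scale, the median oocyte transcript at -1.10, 0.06, 0.35 and 0.46, and the median two-cell transcript at -1.65, 0.25, 0.63 and 0.62. In DMSO replicate 2 the Cxx1 sum was thus below its mean while both lists were at or above theirs. The part of these transcripts in the Cxx1 values was not tested. The 10 markers of cumulus cells summed to 2.52 and 8.84 CPM in the DMSO libraries and 7.98 and 4.20 CPM in the treated libraries. The sum of the Cxx1 genes was 2.40 and 8.42 CPM in the DMSO libraries and 29.4 and 23.7 CPM in the treated libraries. Ptx3, Foxl2, Amh and Inhba were at 0 in all libraries, whereas Tnfaip6 had counts of 0 and 95 against 93 and 38. Star had counts of 35 and 30 against 49 and 11. The part of these markers in the Cxx1 values was not tested. The 5 sperm markers summed to 1.68 and 1.43 CPM in the DMSO libraries and 5.43 and 2.53 CPM in the treated libraries, with Prm1 and Tnp2 at 0. Prm2, a protamine gene and the 1 sperm marker tested, had counts of 10 and 27 against 111 and 39 without overlap (log2FC 1.78, edgeR adjusted p = 0.422), and its part in the Cxx1 values was not tested.

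**Figure D5:**
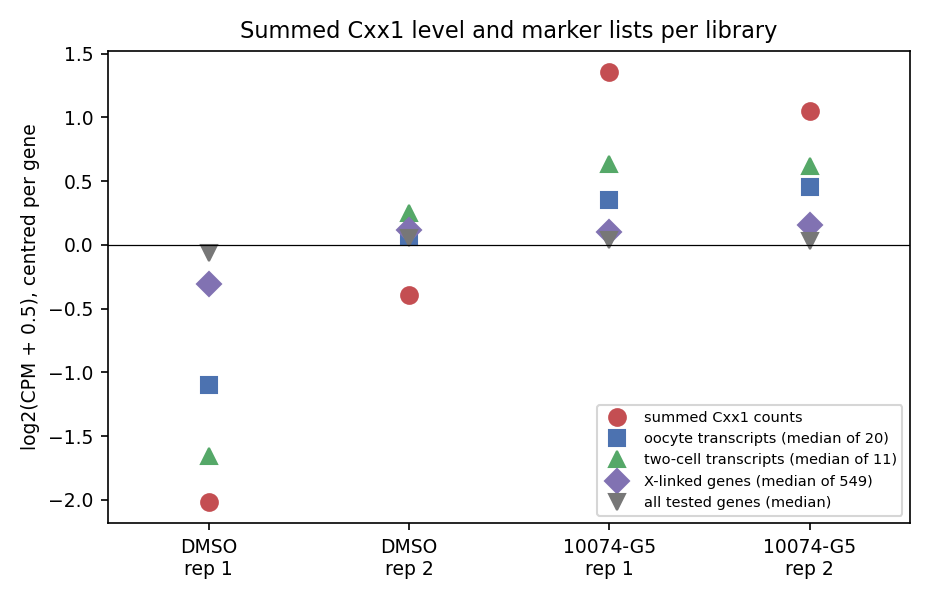
Log2(CPM + 0.5), minus the gene's own average (vertical axis), by library, for the summed Cxx1 count and for the median gene of the oocyte, two-cell and X-linked lists and of all tested genes. All 3 lists and the Cxx1 sum are lowest in DMSO replicate 1; in DMSO replicate 2 the Cxx1 sum (-0.39) lies below the list medians.

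The genes with the profile most like that of the Cxx1 sum were found among 10540 tested genes whose FPKM averaged 1 or more, by the Euclidean distance between centred log2 CPM values over the 4 libraries, which all these genes share. The nearest were 4930423M02Rik (distance 0.164), Pigc (0.224), Il12rb2 (0.228), Stom (0.244) and Obox5 (0.251), and 452 genes lay within a distance of 1. Obox5, an oocyte-specific homeobox gene, was the most abundant of these by CPM, with 577 and 1885 CPM in the DMSO libraries and 5162 and 4214 CPM in the treated libraries. Pigc, which codes for an enzyme subunit of glycosylphosphatidylinositol synthesis, had 4.43 and 18.1 CPM against 55.2 and 41.7 CPM. Stom, the gene of the membrane protein stomatin, had 1.08 and 4.34 CPM against 12.9 and 12.8 CPM. Il12rb2, a subunit of the interleukin-12 receptor, had 0.719 and 2.59 CPM against 11.5 and 8.16 CPM. 4930423M02Rik, the nearest, had 0 and 1.06 CPM in the DMSO libraries and 5.33 and 4.20 CPM in the treated libraries. Its log2 value in DMSO replicate 1 thus rests on the 0.5 CPM added to all values. In each of these genes, as in Cxx1a, DMSO replicate 1 was the lowest library and DMSO replicate 2 the next. With 4 libraries such likeness is a description, and all 5 genes were chosen by it.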

How the data were processed

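Polyadenylated RNA of 2 DMSO and 2 10074-G5-treated pools of late two-cell embryos was sequenced as 150-base read pairs after SMART-Seq v4 PLUS amplification. The authors aligned reads to mm10 with STAR (2.7.10), kept uniquely mapped reads and ran RSEM (1.3.3). The expected counts deposited by the authors are estimated fragments per gene, not normalized. The TPM values deposited by the authors sum to the same total in each library and were not used for results. The FPKM values deposited by the authors are scaled to effective length and library size. The effective lengths deposited by the authors entered 1 alternative.

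Expected counts were rounded, genes were kept by filterByExpr (minimum count 10, minimum total count 15), and 13549 were fitted with TMM factors (0.873, 1.04, 1.04 and 1.06 for DMSO replicates 1 and 2 and treated replicates 1 and 2) and edgeR's quasi-likelihood test (edgeR 4.0.16, R 4.3.3) with Benjamini-Hochberg adjustment over all tested genes; the common biological coefficient of variation was 0.557. Groups and replicate numbers were taken from the labels. p-values measure only the spread between these libraries, and an exact permutation test of 2 against 2 libraries cannot go below 0.333. Total expected counts were 18206584 to 20718690. With the TMM factors, 3 counts were worth from 0.139 CPM in treated replicate 1 to 0.180 CPM in DMSO replicate 1. Named genes were the members, the tested genes of the related lists, the 5 nearest profiles, up to 3 tested neighbours a side, Xist, the Y-linked list, Myc and Max; other genes named were chosen after their values were seen. The members and lists were chosen with earlier results of these data known. Sequences came from RefSeq (GRCm38.p6) and GENCODE M21 (GRCm38), whose transcripts differ in length from those in the files; sequences were aligned globally and shares are over aligned bases. Alternatives were DESeq2 1.42.0, limma 3.58.1 on log2(FPKM + 1) and log2(FPKM + 0.1), other scalings and filters, a replicate block and each library left out.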

Additional observations from a re-analysis of the deposited data

How the results depend on the processing

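The log2FC of Cxx1a was between 2.51 and 2.90, that of Cxx1b between 0.32 and 0.71 and that of the summed count between 2.29 and 2.65 under 11 alternatives other than leaving out a library. Leaving out each library in turn gave 1.85 (without DMSO replicate 1) to 3.83 (without DMSO replicate 2) for Cxx1a, -0.94 (without treated replicate 2) to 1.37 (without treated replicate 1) for Cxx1b and 1.67 to 3.46 for the sum; the remaining library of an arm is assumed to vary like the other arm. The median of the related lists was between 0.00 and 0.33, and 0.14 to 0.76 with a library left out. No alternative for the Cxx1c log2FC was run, as it did not pass the filter, and shares within a library do not depend on scaling. Library totals moved the median of all genes from 0.04 to 0.17.

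The count of genes called was 0 with TMM factors, DESeq2's size factors, library totals, at least 10 counts in every library, limma at 3 settings and the adjusted p alone. It was 644 with no filter (165 higher, 479 lower), 576 with DESeq2 on the filtered genes, 524 with DESeq2 on the genes with 1 count or more and 525 with DESeq2 and effective lengths. Leaving out a library gave 2 (without DMSO replicate 1), 8 and 11 (without treated replicates 1 and 2) and 4213 (without DMSO replicate 2); the cause was not tested. With the replicate number as a block the count was 44 (12 higher, 32 lower), and the log2FC was 2.78 for Cxx1a, 0.33 for Cxx1b and 2.53 for the sum. Same-numbered libraries did not deviate together (r = -0.034 across 13549 genes, which are not independent). With 2 libraries per group this cannot show whether the numbers pair the libraries.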
